A study of Mus musculus with 15 samples.

Results

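This account covers 46 mouse genes of the response to low oxygen, of glycolysis and of blood vessel growth, as they were expressed in a prostate cancer cell line that carried one of several forms of the transcription factor Twist1. The genes were listed by name. A listed gene was measured where an array probe set, the group of probes that reads one gene, carried its symbol and no other symbol in the platform annotation, and of several such probe sets the one with the highest mean over all arrays was kept. Of the 46 genes, 44 had such a probe set, among 19297 genes in all. The 2 without one were the glycolytic enzymes Gpi1 and Eno1.

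Total RNA came from Myc-CaP cells, a line from a prostate tumour of a mouse with a Myc transgene in the prostate, and was read on 15 single-colour Affymetrix mouse gene arrays. The 5 groups of 3 arrays, all in this line and with no further treatment named, were cells given vector with no insert (VEC), unmutated, wild-type Twist1 (WT), Twist1 F191G, which is mutated in the Twist box, Twist1 AQA and Twist1 DQD. The labels do not spell out the changes behind the names AQA and DQD. They file the constructs under knock-in, while the growth protocol speaks of transfected and selected cells that had reached confluence, and neither names a promoter or says whether a group is 1 clone. Replicates are called A, B and C, with nothing on whether they were separate cultures, so p-values reflect only how far these arrays differ, a spread that may be technical.

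Cells respond to low oxygen through the hypoxia-inducible factors (HIF), pairs of an oxygen-regulated alpha subunit (Hif1a or Epas1) and the stable partner Arnt. With oxygen present, prolyl hydroxylases (Egln1, Egln2 and Egln3) mark the alpha subunit and the Vhl protein directs it to destruction, so the activity of the pathway is set largely at the protein level, which an mRNA array does not measure. Stabilised HIF turns on genes for glucose uptake, glycolysis, lactate export, glycogen storage, mitophagy, collagen modification and vessel growth. Solid tumours, those of the prostate included, often have these genes on, and Twist1 is itself known as a target of HIF.

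Values are the deposited log2 levels, on which a difference of 1 is a factor of 2, so that differences between arrays are log2 ratios. They ran from 1.41 to 13.62, with array medians between 6.31 and 6.42. Of the 44 genes, 31 read above the median of their array on all 15 arrays and 11 read below it on all 15, namely Epas1, Egln3, Ndrg1, Car9, Adm, Slc2a3, Eno2, Slc16a3, Vegfc, Kdr and Flt1. Ankrd37 and Pfkfb4 were on either side. The array labelled WT A stood apart from the rest: the lowest correlation between any pair of arrays was 0.969 with it and 0.99 without it. Twist1 read 6.45, 6.71 and 6.13 in VEC (replicates A, B and C), 6.77, 6.85 and 6.75 in WT, 6.87, 6.41 and 6.75 in AQA, 6.62, 6.74 and 6.97 in DQD, and 6.65, 6.85 and 6.76 in F191G. Every array of WT was therefore above every VEC array, while AQA B, DQD A and F191G A were within the VEC range, and none of the 4 forms passed the test against VEC (differences of 0.25 to 0.36, limma adjusted p from 0.129 to 0.438). The mouse gene Myc differed from VEC by 0.37 in WT, 0.49 in F191G, 0.41 in DQD and -0.20 in AQA (limma adjusted p = 0.124, 0.251, 0.139 and 0.539). AQA differed from WT by -0.57 ± 0.15 (SE, limma adjusted p = 0.0599), and none of these differences passed. Whether the Myc probe set also reads the transgene of this line was not tested. Of 7 luminal epithelial markers measured, Krt8, Hoxb13 and Foxa1 were above the array median on all arrays, and Krt18, Epcam, Cdh1 and Tmprss2 on none. None of 8 endothelial and none of 6 haematopoietic markers was above it on all arrays, while 3 of 7 fibroblast markers (Col1a1, Col1a2 and Pdgfra) were. The mean over the markers of each of the 4 cell types had its lowest array in DQD. On DQD and VEC arrays it ran from 6.86 to 6.87 and 6.90 to 7.06 for the luminal markers, 6.13 to 6.28 and 6.36 to 6.42 for the fibroblast markers, 4.6 to 4.7 and 4.74 to 4.85 for the haematopoietic markers, and 5.15 to 5.31 and 5.32 to 5.39 for the endothelial markers. WT arrays ran from 5.31 to 5.37, AQA arrays from 5.26 to 5.35 and F191G arrays from 5.27 to 5.35 for the endothelial markers.

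The promoters of 3 of the genes are shown because the results below turn on them: Ddit4 differed most between the Twist1 forms, and Bnip3 and Pdk1 were among the genes that were highest on AQA arrays. Each is the 250 bases before a transcription start in RefSeq (build GRCm38.p6), read 5′ to 3′ along the gene. Capitals mark the core letters of the HIF binding motif, ACGTG or GCGTG, on either strand (CACGT or CACGC where the opposite strand carries them). A CACGTG holds the core on both strands, counts as 2 matches and is also an E-box. The Bnip3 promoter lies at chr7:138909507-138909756 on the minus strand, 1 of the 2 for Pdk1 at chr2:71872974-71873223 on the plus strand and that of Ddit4 at chr10:59951771-59952020 on the minus strand.
Bnip3: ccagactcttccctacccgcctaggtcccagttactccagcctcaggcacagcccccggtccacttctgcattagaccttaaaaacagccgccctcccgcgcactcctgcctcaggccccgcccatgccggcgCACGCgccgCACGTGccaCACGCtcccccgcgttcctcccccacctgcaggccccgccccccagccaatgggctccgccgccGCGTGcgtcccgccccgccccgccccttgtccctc
Pdk1: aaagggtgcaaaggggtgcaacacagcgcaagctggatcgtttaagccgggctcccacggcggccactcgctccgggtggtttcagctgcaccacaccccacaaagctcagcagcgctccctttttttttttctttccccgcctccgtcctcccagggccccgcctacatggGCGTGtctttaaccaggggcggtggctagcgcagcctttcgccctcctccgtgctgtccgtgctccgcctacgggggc
Ddit4: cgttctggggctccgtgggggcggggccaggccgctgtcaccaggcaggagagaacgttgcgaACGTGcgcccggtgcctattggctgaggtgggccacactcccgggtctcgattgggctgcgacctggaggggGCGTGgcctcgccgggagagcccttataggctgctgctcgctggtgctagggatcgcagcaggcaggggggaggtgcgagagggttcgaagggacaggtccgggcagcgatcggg
The Bnip3 window holds 5 matches, the Ddit4 window 2 and the Pdk1 window 1. The other Pdk1 promoter in RefSeq, at chr2:71874654-71874903 on the plus strand, holds 0.

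RefSeq promoters were found for 38 of the 44 genes, 53 promoters in all, and 32 of these genes had the HIF core letters in at least 1 of them. Of the 53 promoters, 73.6% held the core, against 38.6% of all 32851 promoters of the same length. The letters CANNTG, the E-box that basic helix-loop-helix proteins such as Twist1 bind, were in 62.3% of the genes' promoters and in 66.2% of all. The genes' promoters were also richer in G and C, with a median of 60.4% against 52.4%, and the HIF core is itself GC-rich. The genes were listed by role, with known HIF targets among them, so the excess of the HIF core is not independent evidence. Some genes supplied several promoters, and windows of Aldoa, Pfkm and Kdm3a overlap. Such matches describe the sequence, not binding.

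**Figure D1:**
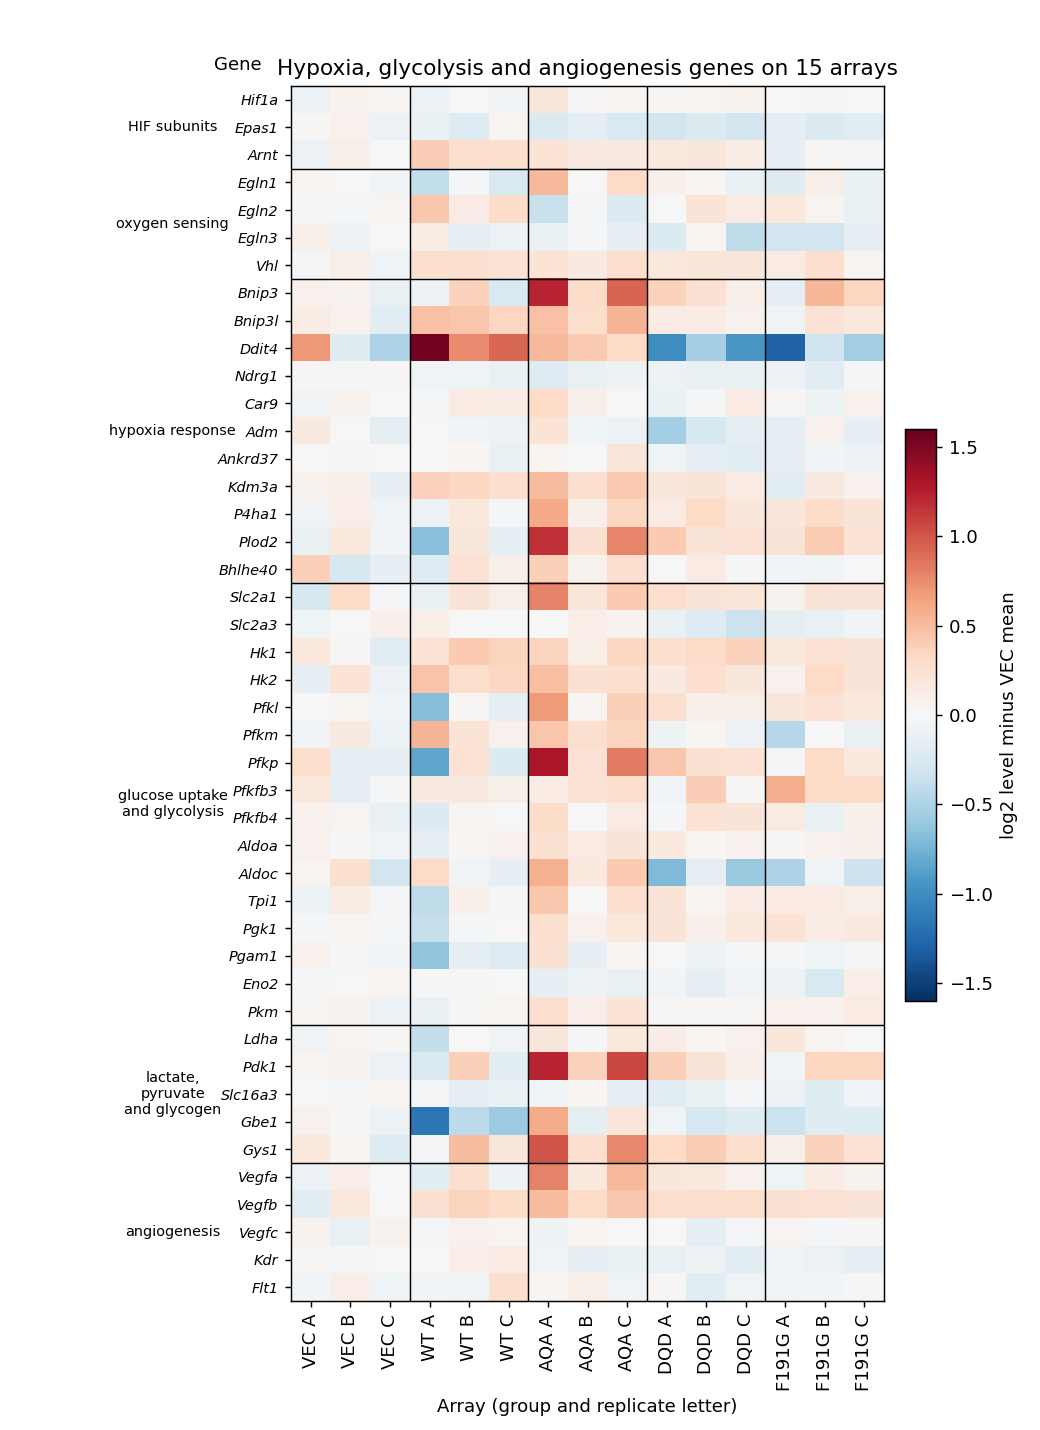
Levels of the 44 measured genes on the 15 arrays, each as its log2 level minus the mean of the 3 VEC arrays (colour scale), with genes in rows grouped by role and arrays in columns grouped by Twist1 form. The widest red blocks are AQA A and AQA C across the hypoxia response, glycolysis and glycogen genes, and Ddit4 is red on all WT arrays and blue on all DQD and F191G arrays.

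In the comparison that the study's design names first, wild-type Twist1 against empty vector, 9 of the 44 genes (20.5%) changed, against 12.8% of all genes. Of these, 8 rose, against 7.06% of all genes called higher, and 1 fell, against 5.72% called lower. At an unadjusted p under 0.05 there were 11 (25%, against 27.6% of all genes). The genes that rose were Arnt and Vhl of the HIF system, the hypoxia response genes Ddit4, Bnip3l and Kdm3a, the hexokinases Hk1 and Hk2, and the growth factor Vegfb. The 1 that fell was the glycogen branching enzyme Gbe1. The set did not move as a block, since the median difference over the 44 genes was 0.01 (all genes -0.009). Of the 44, 23 were above 0 (52.3%, against 47.4% of all genes). A gene was called where its limma p-value, adjusted after Benjamini and Hochberg over all 19297 genes, was under 0.05.

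In the other comparison named in the design, the Twist box mutant F191G against vector, limma called 0 of the 44 genes, against 0.0985% of all genes. At an unadjusted p under 0.05 there were 6 (13.6%, against 11.7% of all genes), and the median difference was 0.03. For DQD against VEC limma also called 0 of the 44, against 0.814% of all genes, with 9 at an unadjusted p under 0.05 (20.5%, against 24% of all genes) and a median difference of 0.08. For AQA against VEC it called 1, Vegfb, which rose, against 0.881% of all genes. There, however, 22 of the 44 genes had an unadjusted p under 0.05 (50%, against 15.7% of all genes). Of the 44, 36 were above 0 (81.8%, against 38% of all genes). The median difference was 0.21, against -0.037 for all genes. The 4 comparisons against VEC share the VEC arrays.

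**Figure D2:**
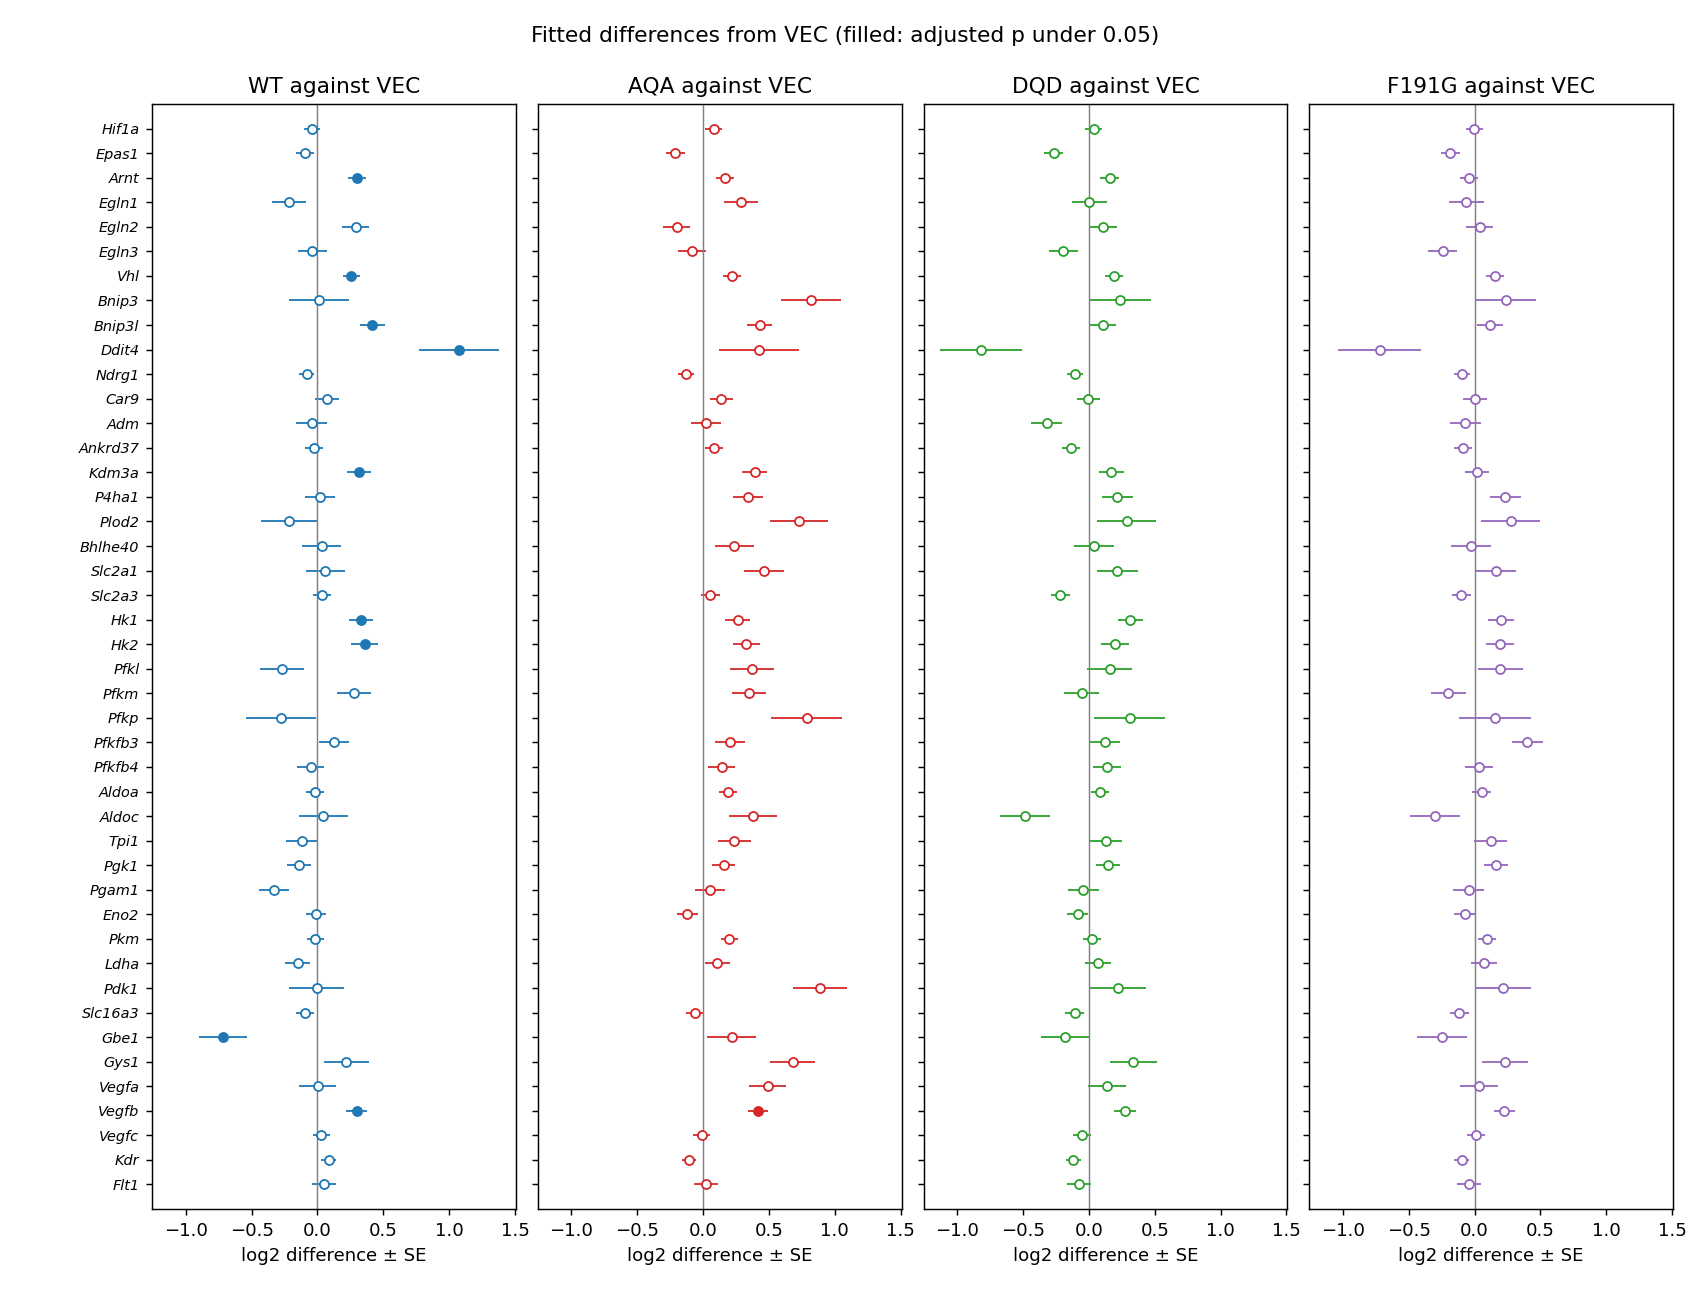
Fitted log2 differences ± SE of each of the 44 genes from VEC, in 1 panel for each Twist1 form, with filled points for an adjusted p under 0.05. WT has 9 filled points and AQA 1 (Vegfb), while DQD and F191G have none, and 36 of the 44 points of AQA lie to the right of 0.

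Set against wild-type Twist1, 3 of the 44 genes differed in F191G, all lower (Ddit4, Arnt and the phosphofructokinase Pfkm), beside 7.13% of all genes, of which 3.18% were higher and 3.95% lower. AQA differed from WT in 2 genes, Gbe1 higher and Egln2 lower, beside 0.726% of all genes (0.306% higher and 0.42% lower). DQD differed from WT in 5 genes, with Ddit4, Bnip3l, the glucose transporter Slc2a3 and the VEGF receptor Kdr lower and the glycolytic enzyme Pgk1 higher. Those 5 genes (11.4%) stand beside 24.5% of all genes, of which 11.8% were higher and 12.8% lower. Between DQD and AQA limma called 0 of the 44 genes, beside 0.0259% of all genes, with 13 at an unadjusted p under 0.05 (29.5%, against 14.6% of all genes). In that comparison only 4 of the 44 genes were above 0 (9.09%, against 43.3% of all genes). The median difference was -0.13, against -0.022 for all genes. A single F test across the 5 groups called 7 of the 44 genes, Arnt, Egln2, Bnip3l, Ddit4, Kdm3a, Gbe1 and Vegfb, beside 10.1% of all genes.

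Counted by array rather than by test, 15 of the 44 genes had every AQA array above every VEC array, which 9.62% of all genes did, and 4 had every AQA array below, as did 16.2% of all genes. For DQD 12 genes were wholly above VEC (12.8% of all genes) and 8 wholly below (22.1%). For WT there were 9 wholly above (15.2%) and 3 wholly below (16.4%), and for F191G 7 above (7.76%) and 6 below (13.3%). Vegfb was wholly above VEC in all 4 forms, and Epas1 and Kdr were wholly below it in AQA, DQD and F191G.

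Among the subunits of HIF only Arnt was called. Hif1a was nearly level in mRNA, and the group means of Epas1 spanned 0.27. Hif1a, the main oxygen-regulated subunit, read 10.77, 10.92 and 10.89 in VEC, 10.77, 10.87 and 10.82 in WT, 11.04, 10.88 and 10.90 in AQA, 10.89, 10.90 and 10.91 in DQD, and 10.86, 10.88 and 10.85 in F191G. The group means span 0.12, and the 95% intervals of the differences from VEC were -0.18 to 0.09 for WT, -0.05 to 0.21 for AQA, -0.10 to 0.17 for DQD and -0.14 to 0.14 for F191G. Epas1, the other oxygen-regulated subunit, was dim at 5.74, 5.79 and 5.63 in VEC, 5.61, 5.51 and 5.76 in WT, 5.49, 5.57 and 5.47 in AQA, 5.43, 5.50 and 5.43 in DQD, and 5.57, 5.50 and 5.55 in F191G. Its arrays lay below all VEC arrays in AQA, DQD and F191G, and in none of them did it pass (DQD -0.27 ± 0.0722, limma adjusted p = 0.0709).

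Arnt, the common partner of the alpha subunits (probe set 10494238), read 9.70, 9.89 and 9.80 in VEC, 10.19, 10.06 and 10.05 in WT, 10.01, 9.94 and 9.94 in AQA, 9.97, 9.98 and 9.91 in DQD, and 9.67, 9.81 and 9.78 in F191G. All WT arrays were above every other array, AQA and DQD arrays came next and also cleared VEC, and F191G overlapped VEC. Arnt rose by 0.30 ± 0.068 (SE) in WT against VEC (limma adjusted p = 0.0164), a 1.23-fold change, and was 0.34 ± 0.0697 lower in F191G than in WT (limma adjusted p = 0.0299). The AQA and DQD differences from VEC, 0.17 and 0.16, did not pass. The call of WT against VEC was lost without VEC A, VEC C or WT A, and that of F191G against WT without WT A, F191G A or F191G C, with differences of 0.25 to 0.35 and -0.38 to -0.28 over the 15 fits that each left out an array.

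Among the oxygen sensors, Vhl and Egln2 moved and Egln1 and Egln3 did not pass. Vhl, the recognition subunit that sends hydroxylated HIF to the proteasome, read 7.21, 7.32 and 7.16 in VEC, 7.51, 7.48 and 7.46 in WT, 7.45, 7.38 and 7.51 in AQA, 7.40, 7.43 and 7.42 in DQD, and 7.36, 7.50 and 7.28 in F191G. It was above VEC on all arrays of WT, AQA and DQD and overlapped VEC in F191G. The rise in WT was 0.26 ± 0.0673 (limma adjusted p = 0.0277), and the differences of the other forms, 0.15 to 0.22, did not pass. Without VEC A, VEC C or WT A the WT call was lost, at differences of 0.21 to 0.31 over all single-array omissions.

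Egln2, the prolyl hydroxylase PHD1, read 8.88, 8.90 and 8.96 in VEC, 9.34, 9.05 and 9.21 in WT, 8.56, 8.89 and 8.69 in AQA, 8.92, 9.12 and 9.04 in DQD, and 9.08, 8.96 and 8.81 in F191G. WT was wholly above and AQA A and AQA C were below VEC, with AQA B inside the VEC range. AQA was 0.49 ± 0.1 lower than WT (limma adjusted p = 0.0489), a call that held in only 2 of the 15 fits without 1 array, those without AQA B or WT B, where the difference ranged over all fits from -0.58 to -0.41. Egln1 (PHD2), the main hydroxylase in most cells and itself induced by HIF, ran the other way, at 9.63, 9.58 and 9.54 in VEC, 9.19, 9.57 and 9.34 in WT, 10.10, 9.59 and 9.90 in AQA, 9.67, 9.61 and 9.47 in DQD, and 9.39, 9.68 and 9.48 in F191G. Its difference between AQA and WT, 0.50 ± 0.128, had a limma adjusted p of 0.0582. Egln3 (PHD3) was dim, at 5.02, 4.85 and 4.95 in VEC, 5.06, 4.80 and 4.85 in WT, 4.83, 4.92 and 4.81 in AQA, 4.72, 4.99 and 4.54 in DQD, and 4.64, 4.64 and 4.81 in F191G, and no comparison passed.

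Ddit4 separated the Twist1 forms more than any other of the 44 genes. Also called REDD1, it encodes an inhibitor of mTORC1 that is induced by low oxygen, DNA damage, glucocorticoids and loss of nutrients. Its probe set (10369290) read 8.78, 7.89 and 7.59 in VEC, 9.63, 8.84 and 9.01 in WT, 8.60, 8.51 and 8.41 in AQA, 7.09, 7.56 and 7.15 in DQD, and 6.79, 7.77 and 7.53 in F191G. All WT arrays were above all others, all DQD arrays were below all VEC arrays, and VEC A lay well above VEC B and VEC C.

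The rise of Ddit4 in WT was 1.08 ± 0.306 (limma adjusted p = 0.038), a 2.11-fold change. Against WT it was 3.71-fold lower in DQD (-1.89 ± 0.313, limma adjusted p = 0.00774) and 3.47-fold lower in F191G (-1.80 ± 0.313, limma adjusted p = 0.0197). The AQA form lay between, 0.65 ± 0.306 below WT and 0.42 ± 0.306 above VEC, and neither difference passed. DQD and F191G were 0.82 ± 0.313 and 0.72 ± 0.313 below VEC, also without passing (limma adjusted p = 0.146 and 0.399). Within the array batches of the labels the DQD and WT groups differed by -2.14 in batch A and -1.65 in batch B. F191G and WT differed by -2.44 and -1.36. Against VEC the differences were -1.24 and -0.23 for DQD and -1.54 and 0.06 for F191G. Batch A held 1 array each of DQD and F191G, and batch B 1 each of VEC and WT. The F191G mean in batch B was thus level with a single array, VEC C. The lower levels against WT kept their calls in 14 of 15 omissions each, with differences of -2.04 to -1.67 and -1.99 to -1.37. The DQD call was lost without DQD A and the F191G call without F191G A. In those fits the comparison called 0 of all genes. The rise against VEC lost its call without WT A, VEC B, VEC C, AQA C, DQD C or F191G C (0.77 to 1.44).

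Bnip3l and Kdm3a rose in WT and had similar differences in AQA. Bnip3l, or Nix, a mitophagy receptor of the outer mitochondrial membrane and a HIF target, read 11.55, 11.50 and 11.26 in VEC, 11.90, 11.88 and 11.78 in WT, 11.90, 11.72 and 11.98 in AQA, 11.57, 11.55 and 11.51 in DQD, and 11.38, 11.67 and 11.60 in F191G. WT and AQA were above every VEC, DQD and F191G array. The difference from VEC was 0.42 ± 0.0966 in WT (limma adjusted p = 0.0179) and 0.43 ± 0.0966 in AQA (limma adjusted p = 0.0589), and DQD was 0.31 ± 0.0989 lower than WT (limma adjusted p = 0.0386). Without WT A or VEC C the WT call was lost (0.31 to 0.48 over all omissions), and the DQD call without any of WT A, WT B, AQA A, F191G C or any DQD array (-0.37 to -0.29).

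Kdm3a, a histone demethylase induced by HIF, read 8.34, 8.36 and 8.15 in VEC, 8.65, 8.61 and 8.55 in WT, 8.79, 8.54 and 8.70 in AQA, 8.46, 8.49 and 8.41 in DQD, and 8.12, 8.43 and 8.35 in F191G. Arrays of WT, AQA and DQD were all above VEC and those of F191G overlapped it. The rise in WT was 0.32 ± 0.0916 (limma adjusted p = 0.04). That call held in 5 of 15 omissions, those of WT C, AQA A, AQA B, F191G A and F191G B, with differences of 0.23 to 0.36. AQA differed from VEC by 0.39 ± 0.0916 (limma adjusted p = 0.0668).

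Bnip3 and Plod2 belong to the same class of hypoxia response genes and were called in no comparison, yet their group means spanned 0.82 and 0.94. Bnip3, the mitophagy and cell death protein related to Bnip3l, read 10.08, 10.07 and 9.90 in VEC, 9.94, 10.39 and 9.77 in WT, 11.24, 10.31 and 10.95 in AQA, 10.39, 10.26 and 10.11 in DQD, and 9.86, 10.55 and 10.36 in F191G. AQA A and AQA C stood above all other arrays, while AQA B was below WT B, DQD A, F191G B and F191G C. The difference of AQA from VEC was 0.82 ± 0.228 (limma adjusted p = 0.111), and it was 0.70 within batch A and 1.05 within batch B. The batch B value compares single arrays, AQA C and VEC C.

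Plod2, a lysyl hydroxylase that prepares collagen for cross-linking, read 8.22, 8.50 and 8.29 in VEC, 7.67, 8.52 and 8.19 in WT, 9.50, 8.58 and 9.12 in AQA, 8.76, 8.54 and 8.57 in DQD, and 8.54, 8.74 and 8.56 in F191G. AQA A and AQA C were again the highest arrays and WT A the lowest. AQA differed from VEC by 0.73 ± 0.219 (limma adjusted p = 0.135) and from WT by 0.94 ± 0.219 (limma adjusted p = 0.0548). Of the other hypoxia response genes, P4ha1, a collagen prolyl hydroxylase, was 0.34 above VEC in AQA, and Ndrg1, Car9, Adm, Ankrd37 and Bhlhe40 stayed within 0.32 of VEC in every form, with none called.

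**Figure D3:**
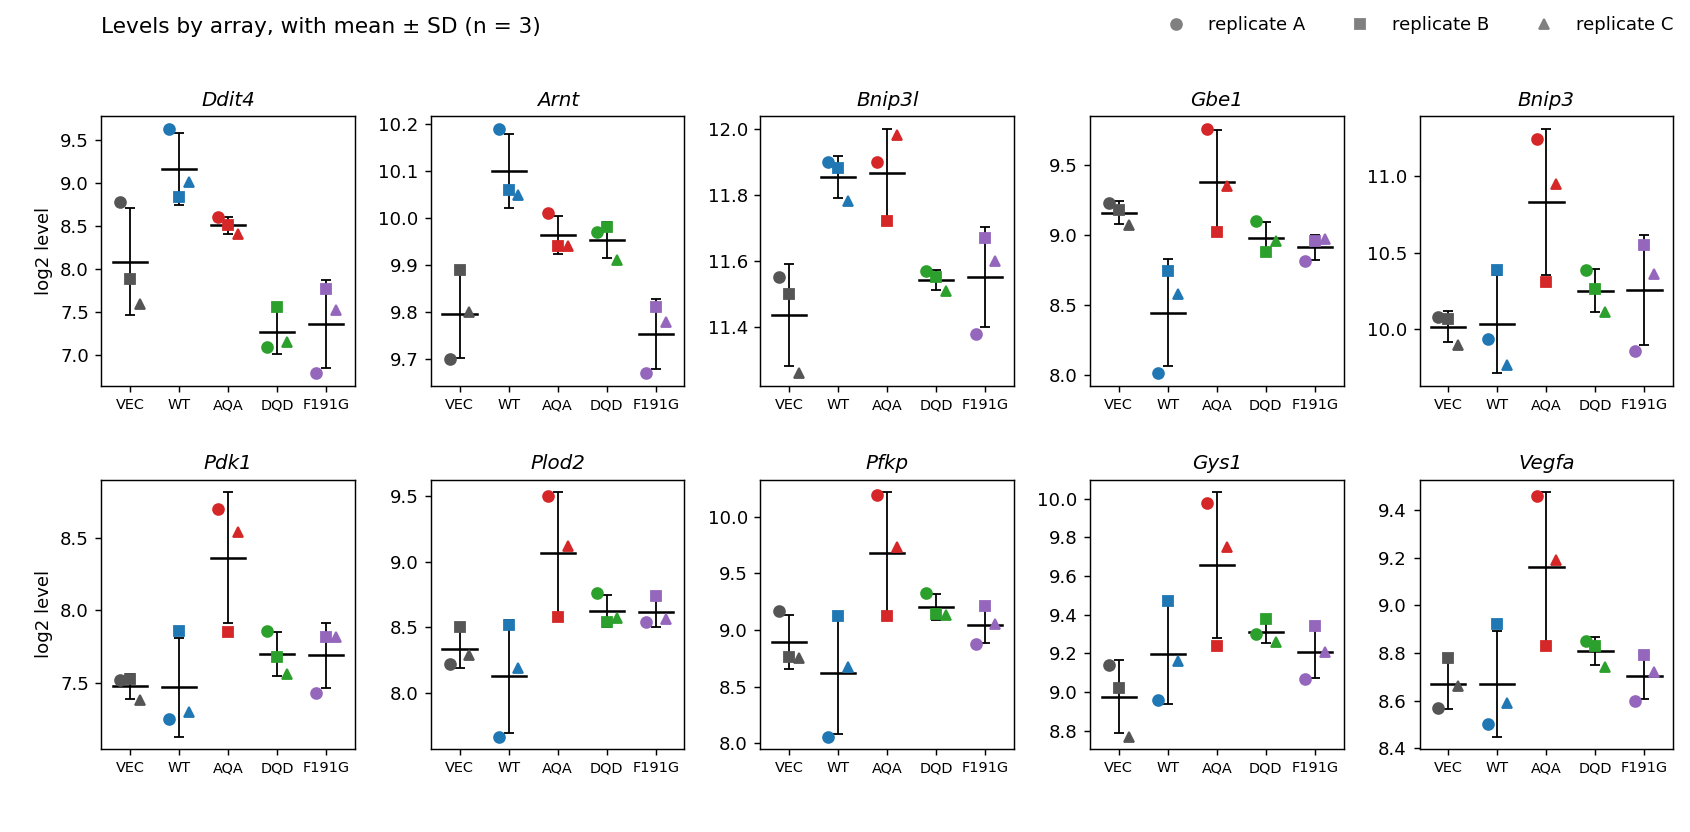
Log2 levels of 10 genes on each array, by group, with replicate letters as symbols and the mean ± SD of 3 arrays as black lines; axes do not start at 0 and differ between panels. Ddit4 and Arnt are highest in WT, and for Bnip3, Pdk1, Plod2, Pfkp, Gys1 and Vegfa the A and C arrays of AQA lie above the other arrays while its B array does not.

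In glucose uptake and glycolysis, 2 of 16 measured genes rose in WT against VEC and none fell, beside 7.06% and 5.72% of all genes. Both encode hexokinases, which trap glucose in the cell. Hk1, the broadly expressed hexokinase, read 9.06, 8.91 and 8.72 in VEC, 9.11, 9.32 and 9.25 in WT, 9.25, 8.99 and 9.23 in AQA, 9.17, 9.20 and 9.26 in DQD, and 9.06, 9.13 and 9.10 in F191G. Arrays of WT and DQD were above all VEC arrays. The differences from VEC were 0.33 ± 0.0934 in WT (limma adjusted p = 0.0365) and 0.31 ± 0.0957 in DQD (limma adjusted p = 0.0872). The WT call was lost without WT B, WT C, VEC B, VEC C, DQD C or F191G C (0.22 to 0.42).

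Hk2, the inducible hexokinase of many tumours, read 8.35, 8.70 and 8.38 in VEC, 8.93, 8.76 and 8.81 in WT, 8.96, 8.72 and 8.74 in AQA, 8.62, 8.75 and 8.66 in DQD, and 8.54, 8.79 and 8.68 in F191G. VEC B lay close to the WT arrays, and the other 2 VEC arrays were lower. Its rise in WT was 0.36 ± 0.103 (limma adjusted p = 0.0396). That call held in 7 of 15 omissions and was lost without VEC A, VEC C, WT A, WT C, AQA C, DQD A, DQD C or F191G C (0.29 to 0.47).

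The phosphofructokinases, which catalyse the committed step of glycolysis, did not move alike. Pfkm, the muscle type, read 8.19, 8.38 and 8.15 in VEC, 8.78, 8.46 and 8.31 in WT, 8.68, 8.49 and 8.60 in AQA, 8.16, 8.27 and 8.14 in DQD, and 7.79, 8.23 and 8.12 in F191G. F191G was wholly below WT, and AQA wholly above VEC. F191G was 0.47 ± 0.132 lower than WT (limma adjusted p = 0.0489). That call held in 2 of 15 omissions (WT B and WT C), with differences of -0.63 to -0.28. The difference was -0.84 in batch A and -0.14 in batch B. F191G A was the only F191G array in batch A, and WT C the only WT array in batch B.

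Pfkp, the platelet type, had the widest range of group means among the uncalled genes, 1.06. It read 9.17, 8.76 and 8.75 in VEC, 8.06, 9.12 and 8.67 in WT, 10.19, 9.12 and 9.73 in AQA, 9.33, 9.14 and 9.13 in DQD, and 8.88, 9.21 and 9.05 in F191G. AQA A and AQA C were the highest arrays, AQA B was within the VEC range and WT A was the lowest. AQA differed from WT by 1.06 ± 0.266 (limma adjusted p = 0.0559) and from VEC by 0.78 ± 0.266 (limma adjusted p = 0.175). Pfkl, the liver type, was 0.37 above VEC in AQA and 0.27 below it in WT, and Pfkfb3, which makes an activator of these enzymes, was 0.40 above VEC in F191G. Neither passed, and Pfkfb4, a relative of Pfkfb3, stayed within 0.14 of VEC in every form.

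Further along the pathway the changes were small. Pgk1, which makes the first ATP of glycolysis, read 12.34, 12.41 and 12.35 in VEC, 12.00, 12.33 and 12.36 in WT, 12.62, 12.43 and 12.53 in AQA, 12.57, 12.45 and 12.53 in DQD, and 12.59, 12.49 and 12.52 in F191G. WT A was the lowest array, and all arrays of the mutant forms were above all VEC and WT arrays. DQD was 0.29 ± 0.0906 higher than WT (limma adjusted p = 0.0378). Without WT A, VEC C, DQD A, DQD C or F191G C this call was lost (0.18 to 0.38), as it was with quantile normalization applied again (0.13 to 0.41 over all alternatives). Aldoa, Tpi1, Pgam1, Eno2 and Pkm, the enzymes around it, were called in no comparison, and the largest of their differences from VEC was -0.33 for Pgam1 in WT.

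Aldoc, an aldolase known mainly from brain, read 7.95, 8.16 and 7.62 in VEC, 8.22, 7.87 and 7.78 in WT, 8.48, 8.06 and 8.33 in AQA, 7.20, 7.75 and 7.32 in DQD, and 7.41, 7.85 and 7.58 in F191G. All DQD arrays were below all WT and all AQA arrays. DQD was 0.87 ± 0.189 lower than AQA (limma adjusted p = 0.108) and 0.53 ± 0.189 lower than WT (limma adjusted p = 0.0556), neither of which passed. Slc2a3, a high-affinity glucose transporter (GLUT3) that was dim here, read 5.56, 5.62 and 5.71 in VEC, 5.73, 5.63 and 5.64 in WT, 5.63, 5.74 and 5.69 in AQA, 5.52, 5.43 and 5.29 in DQD, and 5.48, 5.51 and 5.59 in F191G. DQD was 0.25 ± 0.0726 lower than WT (limma adjusted p = 0.028), a call lost without WT A, WT C or any DQD array (-0.33 to -0.19). Quantile normalization applied again, median centring and the replicate block with the batch term also ended it (-0.33 to -0.12 over all alternatives). Slc2a1 (GLUT1), the main transporter of HIF-driven glucose uptake, differed from VEC by 0.46 in AQA and by at most 0.22 in the other forms, with no call.

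Of the genes that steer pyruvate and glycogen, Gbe1 was called in WT and Pdk1 and Gys1 were highest in AQA without passing. Gbe1, the glycogen branching enzyme (probe set 10436500), read 9.23, 9.18 and 9.07 in VEC, 8.01, 8.74 and 8.58 in WT, 9.76, 9.02 and 9.35 in AQA, 9.10, 8.88 and 8.96 in DQD, and 8.81, 8.96 and 8.97 in F191G. Every WT array was below every other array, WT A by the widest margin. It fell by 0.72 on the log2 scale in WT against VEC (SE 0.184, limma adjusted p = 0.0263), a 1.64-fold change, and was 0.93 ± 0.184 higher in AQA than in WT (limma adjusted p = 0.0455). Without WT A the first difference was the smallest of all omissions, -0.49, and not called. VEC A, VEC B and VEC C also each ended that call when left out (range -0.87 to -0.49), and the second held in 3 of 15 omissions, those of VEC A, WT B and AQA B (0.71 to 1.12).

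Pdk1, the kinase that shuts pyruvate dehydrogenase and keeps pyruvate from the mitochondria, read 7.52, 7.53 and 7.38 in VEC, 7.25, 7.86 and 7.30 in WT, 8.70, 7.85 and 8.54 in AQA, 7.86, 7.68 and 7.56 in DQD, and 7.43, 7.82 and 7.82 in F191G. AQA A and AQA C were well above all other arrays, and AQA B was level with WT B and DQD A. AQA differed from VEC by 0.89 ± 0.208 (limma adjusted p = 0.0664), by 0.75 in batch A and 1.16 in batch B. In batch B this is again AQA C against VEC C alone. Gys1, glycogen synthase, whose arrays were picked for display after their values were seen, read 9.14, 9.02 and 8.77 in VEC, 8.96, 9.47 and 9.16 in WT, 9.98, 9.24 and 9.75 in AQA, 9.30, 9.38 and 9.26 in DQD, and 9.07, 9.34 and 9.21 in F191G. Its difference in AQA was 0.68 ± 0.173 (limma adjusted p = 0.086). Ldha, lactate dehydrogenase A, and Slc16a3, the lactate exporter MCT4, were called in no comparison and were within 0.15 of VEC in every form.

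Among the vessel growth genes only Vegfb passed against VEC. Vegfb, a VEGF-family ligand of Flt1, read 8.74, 9.07 and 8.90 in VEC, 9.15, 9.26 and 9.20 in WT, 9.41, 9.21 and 9.34 in AQA, 9.18, 9.18 and 9.18 in DQD, and 9.15, 9.13 and 9.11 in F191G. All 12 arrays with a Twist1 form were above all 3 VEC arrays. It rose by 0.30 ± 0.079 in WT (limma adjusted p = 0.0292) and by 0.42 ± 0.079 in AQA (limma adjusted p = 0.0351), and differed by 0.27 ± 0.081 in DQD and 0.23 ± 0.081 in F191G (limma adjusted p = 0.0827 and 0.313). The WT call was lost without VEC A, VEC C or any WT array (0.21 to 0.39). The AQA call held in 6 of 15 omissions and was lost without VEC A, VEC C, AQA A, AQA C, F191G B, F191G C or any DQD array (0.33 to 0.50).

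Vegfa, the principal HIF-driven vessel growth factor, shown per array after its values were seen, read 8.57, 8.78 and 8.66 in VEC, 8.50, 8.92 and 8.59 in WT, 9.46, 8.83 and 9.19 in AQA, 8.85, 8.83 and 8.74 in DQD, and 8.60, 8.79 and 8.72 in F191G. It was level in WT (0.00, 95% interval -0.30 to 0.31) and 0.49 ± 0.141 above VEC in AQA (limma adjusted p = 0.121). The receptor Kdr (VEGFR2), dim in these cells, read 5.04, 5.00 and 5.03 in VEC, 5.03, 5.13 and 5.15 in WT, 4.95, 4.89 and 4.90 in AQA, 4.91, 4.94 and 4.85 in DQD, and 4.96, 4.93 and 4.87 in F191G. All 9 arrays of the mutant forms were below all VEC and WT arrays, and the difference of DQD from WT passed (-0.20 ± 0.057, limma adjusted p = 0.0256), a call lost without WT C, DQD A or DQD C (-0.24 to -0.17). Quantile normalization applied again, median centring and the replicate block with the batch term also ended it, and the difference ran from -0.26 to -0.09 over all alternatives. Kdr marks endothelial cells, whose defining markers Pecam1 and Cdh5 were below the array median on all 15 arrays. The mean of the endothelial markers had its lowest array in DQD (5.15 to 5.31), as had those of the luminal, fibroblast and haematopoietic markers, and their part in the Kdr difference was not tested. Vegfc and the receptor Flt1 were below the array median on all arrays and called in no comparison.

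The 3 AQA arrays did not behave alike across these genes. AQA A read above all VEC arrays in 32 of the 44 genes (72.7%, against 23.7% of all genes), AQA C in 28 (63.6%, against 23.9%) and AQA B in 18 (40.9%, against 22.3%). AQA B was the lowest of the 3 in 31 of 44 genes (70.5%, against 32% of all genes). In 15 of the 44 genes AQA had the widest spread of the 5 groups, as in 11.4% of all genes. The median gene of the hypoxia response class was 0.47 above the VEC mean on AQA A, 0.09 on AQA B and 0.33 on AQA C, and for glucose uptake and glycolysis these medians were 0.32, 0.11 and 0.26.

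**Figure D4:**
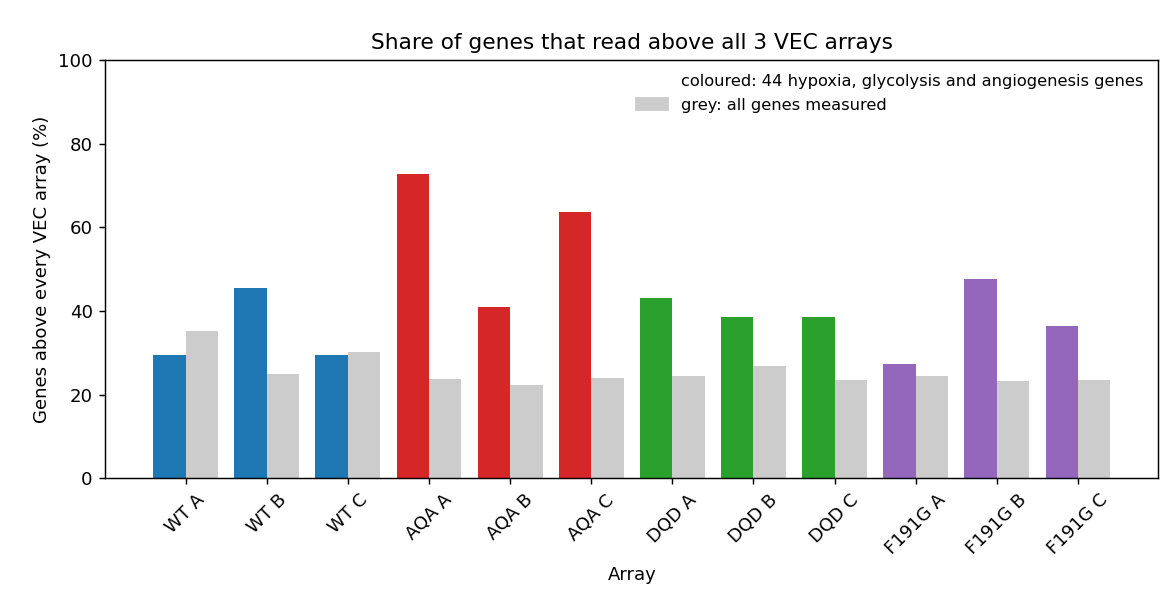
Share of genes (percent) that read above all 3 VEC arrays on each of the 12 other arrays, for the 44 hypoxia, glycolysis and angiogenesis genes (coloured bars) and for all 19297 genes (grey bars). AQA A (72.7%) and AQA C (63.6%) have the tallest coloured bars, and AQA B (40.9%) is near the arrays of the other forms.

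AQA A and AQA B share the array batch, and AQA C is the only AQA array in the other. Twist1 was in the same order as these genes, 6.87 on AQA A, 6.75 on AQA C and 6.41 on AQA B. The mouse gene Myc ran 9.46, 9.66 and 9.86 on AQA A, AQA C and AQA B. The part of the batch, of Twist1 and of Myc in the split among the AQA arrays was not tested. Without AQA B, 8 of the 44 genes (18.2%) were called for AQA against VEC, all higher, beside 1.1% of all genes in the same fit. AQA B was the array seen to read low in these genes, so the counts without it are a description. The 8 were Pdk1 (1.15 ± 0.174, limma adjusted p = 0.0159), Bnip3 (1.09 ± 0.201, 0.0286), Plod2 (0.99 ± 0.197, 0.0376), Gys1 (0.90 ± 0.146, 0.0217), Vegfa (0.67 ± 0.123, 0.029), Bnip3l, Kdm3a and Vegfb. Without WT A there were 6 calls (13.6%, beside 2.24% of all genes) and without F191G A 3 (6.82%, beside 0.979%), and without any of VEC A, VEC C, AQA A, AQA C, F191G B, F191G C or a DQD array there were 0. Of all genes, 0 were called without VEC C or AQA C, 0.00518% without AQA A and 0.166% without VEC A. The share was 0.383% without F191G B, 0.352% without F191G C, and 0.435%, 0.534% and 0.269% without DQD A, B and C.

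AQA against WT went from 2 calls to 14 without AQA B (31.8%, beside 6.58% of all genes in the same fit) and to 15 without WT B (34.1%, beside 12.5%). The count was 1 without VEC A (2.27%, beside 0.948% of all genes) and 0 without any of the other 12 arrays, WT A among them. In each of those 12 fits 0 of all genes were called, so the zeros are not particular to this set. The genes called without AQA B included Pfkp (1.36 ± 0.247), Plod2 (1.20 ± 0.197), Pdk1 (1.16 ± 0.174), Bnip3 (1.08 ± 0.201) and Pfkl (0.81 ± 0.162), all higher in AQA, and Egln2 (-0.58 ± 0.102), which was lower. The deviations of WT B and AQA B from their group means correlated at -0.85, the lowest of the same-letter pairs. WT B and AQA B read close together in Pfkp (9.12 and 9.12), Pdk1 (7.86 and 7.85), Bnip3 (10.39 and 10.31) and Plod2 (8.52 and 8.58). They were further apart in Ddit4 (8.84 and 8.51) and Gbe1 (8.74 and 9.02). The reason for this likeness was not tested.

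Single arrays also set the count for WT against VEC. The count of 9 became 0 without VEC C, 1 without WT A (Hk1), 3 without VEC A, 5 without VEC B, DQD C or F191G C, and 6 without WT C or AQA C. Of all genes, 0.663% were called without VEC C, 4.37% without WT A and 6.81% without VEC A. The shares were 8.77% without VEC B, 9.78% without DQD C and 10.1% without F191G C. They were 14.3% without WT C and 9.94% without AQA C. WT A was the lowest WT array in 25 of the 44 genes (56.8%, against 33.4% of all genes), with Pfkp, Plod2 and Gbe1 among them. For F191G against WT the 3 calls became 6 without WT B (13.6%, beside 15.3% of all genes). The count was 1 without WT A (2.27%, beside 0.777%) or F191G C (2.27%, beside 0.549%). Without F191G A, 0 of all 19297 genes were called. For DQD against WT the 5 became 10 without WT B (22.7%, beside 27.7% of all genes) and 7 without AQA B (15.9%, beside 23.7%). The count was 3 without F191G C (6.82%, beside 21.3%), 2 without WT A (4.55%, beside 11%) and 1 without DQD C (2.27%, beside 18.7%). Without DQD A, 0 of all 19297 genes were called. Median centring also ended the calls of Vhl, Kdm3a, Hk1 and Vegfb for WT against VEC, Pfkm for F191G against WT, Egln2 and Gbe1 for AQA against WT and Bnip3l for DQD against WT. Every called difference had the same sign within batch A and within batch B. The calls came from these same arrays, so the agreement is a description and adds no support to them. Batch A held 1 array each of DQD and F191G, and batch B 1 each of VEC, WT and AQA. In RNA from whole cultures, a lower level in each cell and fewer cells with the transcript cannot be told apart.

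Other genes of the same pathways, listed by textbook role, were described in the same fit. Of 27 further HIF regulators and hypoxia targets, 4 rose and 1 fell in WT against VEC, with a median difference of -0.09 (all genes -0.009). Of all genes, 7.06% were called higher and 5.72% lower in that comparison. The 4 of smallest p were Tfrc, the transferrin receptor (-0.70 ± 0.126, limma adjusted p = 0.00817), the histone demethylase Kdm4b (0.46 ± 0.112, 0.0213), Narf (0.53 ± 0.135, 0.0256) and Hif3a, another HIF alpha subunit (0.57 ± 0.154, 0.0312). On the arrays, Tfrc read 10.10, 10.05 and 10.12 in VEC and 9.03, 9.54 and 9.60 in WT. The F191G form had 0 calls in this list against VEC, beside 0.0985% of all genes. At an unadjusted p under 0.05 it had 5, beside 11.7% of all genes. Against WT it had 2 higher, Tfrc and Higd1a, and 2 lower, Kdm4b and Narf, beside 3.18% and 3.95% of all genes.

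Of 35 further enzymes of glycolysis, glycogen, pyruvate and the pentose phosphate pathway, 1 rose and 2 fell in WT against VEC. Of all genes, 7.06% rose and 5.72% fell. Pdk2, another pyruvate dehydrogenase kinase, read 9.14, 9.11 and 8.61 in VEC, 10.78, 9.57 and 9.95 in WT, 9.46, 9.68 and 9.35 in AQA, 8.37, 8.98 and 8.58 in DQD, and 8.54, 9.21 and 8.97 in F191G. It was highest on WT A and WT C, and every WT array exceeded every VEC array. Pdk2 rose by 1.15 ± 0.274 in WT (limma adjusted p = 0.02) and was lower than WT in DQD (-1.46 ± 0.281) and F191G (-1.20 ± 0.281), both of which passed (limma adjusted p = 0.0107 and 0.0355). Pfkfb2, which makes and breaks down an activator of phosphofructokinase, fell by 0.48 (SE 0.0744, limma adjusted p = 0.00527), and Ugp2, which makes UDP-glucose for glycogen, fell by 0.39 (SE 0.102, limma adjusted p = 0.0278). F191G against VEC again had 0 calls (0.0985% of all genes), with 3 genes at an unadjusted p under 0.05 (11.7% of all genes).

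Of 25 further vessel growth ligands and receptors, 2 rose in WT against VEC and none fell, beside 7.06% and 5.72% of all genes. Vegfd, a ligand of the lymphatic VEGF receptor, read 5.31, 5.58 and 5.42 in VEC, 7.23, 6.0 and 6.33 in WT, 5.26, 5.87 and 5.29 in AQA, 5.11, 5.15 and 5.19 in DQD, and 5.06, 5.61 and 5.56 in F191G. All WT arrays were above all others, with WT A the highest by far. It rose by 1.09 ± 0.26 in WT (limma adjusted p = 0.0203) and was lower than WT in DQD (-1.37 ± 0.266, limma adjusted p = 0.0108) and F191G (-1.11 ± 0.266, limma adjusted p = 0.0361). Ephb4, the venous ephrin receptor, rose by 0.40 ± 0.122 in WT (limma adjusted p = 0.0499). Against WT, DQD had 7 genes of this list lower and none higher, beside 12.8% and 11.8% of all genes. For each of these 7 genes WT A was the highest WT array. F191G against VEC had 0 calls (0.0985% of all genes), with 4 at an unadjusted p under 0.05 (11.7% of all genes).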

How the data were processed

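Expression was measured on 15 single-colour arrays, 3 for each of 5 groups assigned from the labels. The deposited log2 values were made with RMA, and limma was also used, per the submitters' processing notes; their versions were not given in those notes. A further normalization to Twist1 expression is named in the series design with no form, and whether it altered the deposited log2 values is unknown. No detection calls were used, and precision is limited by the number of arrays.

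The platform annotation lists 1 gene symbol for 20852 of 23811 probe sets, several for 1440 and none for 1519. For the 846 genes with several probe sets the one with the highest mean was kept, which left 19297 genes with no filter. Bnip3, Bnip3l, Pgk1 and Pgam1 had more than 1 probe set, and their differences disagreed by at most 0.15. Models with group and array batch (8 arrays in batch A, 7 in batch B) were fitted over all arrays (limma 3.58.1, R 4.3.3, with 9 residual and 3.93 prior degrees of freedom), and 8 pairwise comparisons and an F test were adjusted after Benjamini and Hochberg over all genes. The code was tested on simulated data. Promoters came from RefSeq (GRCm38.p6). Figures were drawn with matplotlib 3.10.9. 

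The members and lists were chosen with earlier results of these data known. Values on every array are given for members called in a comparison, the HIF subunits and oxygen sensors, and the 5 uncalled members with the widest range of group means. From each other list, called genes of WT or F191G against VEC were named, up to 4 of smallest p, some with values on arrays. Alternatives changed the batch term, the scaling, the filter, the probe set rule, the moderation, array weights, a Twist1 covariate and single arrays. Replicate letters did not pair the arrays: of 30 same-letter pairs, 6 had a correlation of deviations over 0.1 (range -0.85 to 0.225). The lowest was between WT B and AQA B.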

Additional observations from a re-analysis of the deposited data

Results flagged for a closer look

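In 10 cases a mutant form differed from wild-type Twist1 with a limma adjusted p under 0.05, which is a test of the difference between their effects against the shared vector control. For Ddit4 the difference was -1.80 in F191G and -1.89 in DQD. Arnt was also lower in F191G than in WT, at -0.34, and so was Pfkm, at -0.47. Egln2 differed by -0.49 and Gbe1 by 0.93 between AQA and WT. Between DQD and WT, Bnip3l differed by -0.31, Slc2a3 by -0.25, Pgk1 by 0.29 and Kdr by -0.20.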

How the results depend on the processing

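Counts below are of the 44 genes called, without the share of all genes called in the same fit. They therefore do not tell a shift of these genes from a change over all genes. The 20 called single differences kept their sign under all 559 alternatives run, and their call under 333 of them; 226 ended the call. Without the batch term the counts were 4 for AQA against VEC, 3 for DQD against VEC, 7 for F191G against WT, 13 for AQA against WT, 1 for DQD against AQA and 16 for the F test. Fitting only the arrays compared gave 0 for WT and AQA against VEC and for F191G, AQA and DQD against WT, and 1 for DQD against AQA. Quantile normalization applied again gave 2 for AQA against VEC, 4 for AQA against WT and 3 for DQD against WT. Median centring gave 5 for WT against VEC and 0 for AQA against WT. Leaving out the dimmest 33.3% of genes gave 2 for AQA against VEC, 5 for F191G against WT and 7 for AQA against WT. Testing all probe sets gave 2 for AQA against VEC and 10 for DQD against WT, and a variance trend with robust moderation gave 2 for AQA against VEC. Array weights gave 15 for AQA and 4 for DQD against VEC, 19 for AQA and 9 for DQD against WT, 13 for DQD against AQA and 27 for the F test; WT A had the lowest weight, 0.237. Batch A alone held 1 array each of DQD and F191G, and batch B alone 1 each of VEC, WT and AQA, so counts from these fits are not given. The median difference over the 44 genes was 0.17 in batch A and 0.29 in batch B for AQA against VEC. It was 0.13 and 0.16 for AQA against WT, and 0.01 and 0.08 for WT against VEC. The Twist1 value as a covariate gave 0 for WT and AQA against VEC, for AQA against WT and for the F test. The cause of these shifts was not tested.

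With the replicate block and the batch term the counts were 4 for WT and 0 for AQA against VEC, 1 for F191G, 0 for AQA and 2 for DQD against WT, and 1 for the F test. With the replicate block and no batch term they were 0 for AQA against VEC, 0 for AQA against WT and 1 for the F test.

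Leaving out each array in turn gave 0 to 9 calls for WT, 0 to 8 for AQA and 0 for F191G and DQD against VEC. Against WT it gave 0 to 6 for F191G, 0 to 15 for AQA and 0 to 10 for DQD. It gave 0 to 1 for DQD against AQA, the 1 without WT A, and 0 to 17 for the F test (0 without DQD A, 17 without AQA B). Of 672 alternative counts for the 3 further lists, 199 moved by over 1.5 times. Genes below the array median, such as Epas1, Slc2a3 and Kdr, are read with the least signal.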

Other observations

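Some genes of the further lists, picked out after their values were seen, had AQA A and AQA C as their highest arrays. Ero1a, an oxidase of the endoplasmic reticulum known as a HIF target, read 11.42, 10.50 and 10.96 on AQA A, B and C, against 10.17, 10.29 and 9.96 on the VEC arrays. It differed by 0.82 ± 0.206 from VEC and did not pass (limma adjusted p = 0.0822). Zfp395, another hypoxia-induced gene, read 9.30, 8.86 and 9.25 in AQA and 8.66, 8.65 and 8.34 in VEC. Zfp395 was the single gene of the 27 further HIF regulators and hypoxia targets that rose in AQA against VEC (0.59 ± 0.124, limma adjusted p = 0.0478). Mxi1, a Myc antagonist induced by HIF, read 8.11, 7.93 and 8.06 in AQA and 7.76, 7.75 and 7.63 in VEC (0.32 ± 0.0757, limma adjusted p = 0.067). Pdk3, a pyruvate dehydrogenase kinase, read 10.18, 9.76 and 10.03 in AQA and 9.34, 9.67 and 9.68 in VEC. Other hypoxia targets of the list were closer to VEC in AQA: Hilpda differed by 0.14 ± 0.144, Higd1a by -0.04 ± 0.0931 and Stc2 by -0.15 ± 0.0883.

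DQD differed from WT in 7 further vessel growth genes, all lower. Beside Vegfd these were Angptl4, a HIF and PPAR target that restrains lipoprotein lipase (-0.93 ± 0.228, limma adjusted p = 0.0181), Edn1, the vasoconstrictor endothelin (-0.61 ± 0.195, 0.0383), Fgf1 (-0.51 ± 0.119, 0.0153), Ephb4 (-0.46 ± 0.125, 0.023), Aplnr and Ramp2. In the same comparison 4735 of 19297 genes were called, with 12.8% of all genes lower and 11.8% higher. On all DQD arrays Vegfd, Fgf1, Ramp2 and Aplnr read below the array medians, the lowest of which was 6.31. WT A was the highest WT array for each of the 7. Fgf1, for example, read 6.05 on WT A, 5.59 on WT B and 5.72 on WT C. The part of WT A and of low signal in these differences was not tested. The pentose phosphate enzymes Taldo1 and Tkt were higher in DQD than in WT (0.56 ± 0.114 and 0.28 ± 0.0771, limma adjusted p = 0.0117 and 0.0247). Taldo1 was also higher in F191G than in WT (0.41 ± 0.114, limma adjusted p = 0.0489).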
